A study of Mus musculus with 25 samples.

Results

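The actin, adhesion and YAP-TEAD genes are 43 genes that build and anchor the actin cytoskeleton or act in YAP-TEAD signalling, taken as a given list: actins, myosin chains, tropomyosins, calponins, transgelins, crosslinkers, integrins and focal adhesion proteins, membrane linkers, small GTPases, and YAP-TEAD factors with their target Ccn1. A peak of accessible chromatin was counted as a member peak if the nearest protein-coding transcription start site (TSS) was that of a member, within 100 kb. Of 45672 merged peaks, 237 were member peaks. They comprised 78 promoter peaks, within 3 kb of the TSS, of 15521 such peaks in the series, and 159 distal peaks of 21657. All of these belonged to 40 members, each of which had a promoter peak, and 31 had a distal peak. Myl12a and Rhoa had no peak of their own, because the peak over their start lay as near or nearer to a start of Myl12b or Tcta, and Cnn2 had no peak under the rule.

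Accessibility had been measured by ATAC-seq, in which a transposase cuts open chromatin, in astrocytes from the cortex of wild-type C57BL/6J mice at P5-P6. In each of 2 cultures, one with EGF and bFGF (EGF+bFGF, 10 ng/ml each) and one with bFGF alone, cells received MMLV-based retroviruses with a CAG promoter that encoded Neurog2, Hmgb2, both from separate vectors (Neurog2+Hmgb2), or only a fluorescent protein (Control), and 50000 sorted cells were taken 48 h later. Each of the 8 groups held 3 libraries, except EGF+bFGF Hmgb2 with 4, which gave 25 in all. Such retroviruses integrate in dividing cells only. Since the labels do not tie libraries to separate animals or cultures, p-values measure the spread between libraries, which may be technical.

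Actin filaments polymerise from globular actin, are bundled by myosin, alpha-actinin and filamin into stress fibres, and are tied to the matrix through talin, vinculin and integrins. Free globular actin holds back the coactivators of serum response factor (SRF), which binds the CArG box in many cytoskeletal genes. Tension and spreading let YAP and TAZ (the product of Wwtr1) enter the nucleus, where they act through TEAD factors, and cultured astrocytes on a stiff, coated surface carry many stress fibres.

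The unit throughout is the deposited rlog value, a log2 measure of reads in a peak scaled between libraries, so differences are log2 differences. Read depth is unknown. Library medians lay between 4.557 and 4.675, and 1 library, replicate 2 of Neurog2 in bFGF culture, lay away from its group (mean correlation 0.9357). Of 10 astrocyte markers 8 had a promoter peak, without Aldoc and S100b, and their mean promoter value, in single libraries of EGF+bFGF culture, spanned 6.16 to 6.23 in Neurog2, 5.96 to 6.04 in Neurog2+Hmgb2 and 5.80 to 6.04 in Hmgb2, against 6.08 to 6.22 in Control. The Neurog2+Hmgb2 and Hmgb2 libraries thus lay below Control, while none of the 8 passed the test in the comparisons of Neurog2 or Neurog2+Hmgb2 with Control. Of 10 fibroblast and mural cell markers 5 had a promoter peak: Col1a1, Col1a2, Pdgfrb, Cspg4 and Kcnj8. Dcn, Lum, Des, Rgs5 and Abcc9 had none. The mean promoter value of the 5 with a peak, in single libraries, spanned 4.45 to 4.57 in Neurog2, 4.29 to 4.50 in Neurog2+Hmgb2 and 4.34 to 4.41 in Control of EGF+bFGF culture, and none of the 5 passed the test in the 4 comparisons with Control. Of 6 neuronal markers 3 had a promoter peak, and 2 of them were higher in Neurog2+Hmgb2 than in Control of EGF+bFGF culture (library means 6.45 to 6.47 with Neurog2 and 6.36 to 6.58 with Neurog2+Hmgb2, against 5.98 to 6.29 in Control). Of 6 microglial markers 2 had a promoter peak, without Aif1, Cx3cr1, P2ry12 and Ptprc, and their mean lay above Control in EGF+bFGF culture (4.01 to 4.27 in Neurog2 and 4.13 to 4.25 in Neurog2+Hmgb2, against 3.91 to 3.96 in Control), again with none called. Endothelial markers (2 of 6 with a peak) spanned in the same culture 4.93 to 5.18 in Neurog2 and 5.07 to 5.21 in Neurog2+Hmgb2, against 5.17 to 5.34 in Control, and those of the oligodendrocyte lineage (5 of 6) 5.16 to 5.33 and 5.06 to 5.15, against 5.07 to 5.33 in Control. Astrocyte markers spanned 5.87 to 5.94 in bFGF Control, below the 6.08 to 6.22 of EGF+bFGF Control. With Neurog2 in bFGF culture they spanned 5.67 to 6.02, and with Neurog2+Hmgb2 5.83 to 6.00. Endothelial markers in bFGF culture spanned 4.53 to 4.96 in Neurog2, below Control (5.00 to 5.50), and 5.03 to 5.28 in Neurog2+Hmgb2, with none called. In such bulk samples, fewer cells of a type and less accessible chromatin per cell cannot be told apart, and the part of cell make-up in the results was not tested.

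Central stretches of 300 bases of 6 member peaks (mm10, plus strand; the Itgav one runs slightly past its peak) carry most of what follows. The first pair lost accessibility with Neurog2+Hmgb2 in EGF+bFGF culture: a peak in an Actn4 intron (chr7:28901342-28901641) and one upstream of Ezr (chr17:6803775-6804074). Capitals mark the TEAD motif GGAATG, read on either strand. Of the 8 member peaks called lower, only these 2 held it (25.0%, against 24.5% of all distal peaks).
Actn4 -3.3 kb: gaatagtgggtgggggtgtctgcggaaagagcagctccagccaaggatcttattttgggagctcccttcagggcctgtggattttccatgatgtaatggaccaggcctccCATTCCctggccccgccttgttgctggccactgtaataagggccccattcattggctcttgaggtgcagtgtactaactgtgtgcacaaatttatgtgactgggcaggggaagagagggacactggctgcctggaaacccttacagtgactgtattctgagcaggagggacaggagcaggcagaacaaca
Ezr -21.1 kb: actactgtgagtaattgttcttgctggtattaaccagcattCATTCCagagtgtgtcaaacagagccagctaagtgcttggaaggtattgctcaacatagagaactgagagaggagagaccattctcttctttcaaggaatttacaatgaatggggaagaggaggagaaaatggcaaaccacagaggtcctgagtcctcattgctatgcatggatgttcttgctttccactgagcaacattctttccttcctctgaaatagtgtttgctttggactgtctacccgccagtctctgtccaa

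The other 4 gained accessibility with Neurog2, with Neurog2+Hmgb2 or with both: a peak in an Itgav intron (chr2:83761554-83761853), one upstream of Itgb1 (chr8:128594765-128595064), one downstream of Anxa2 (chr9:69517684-69517983) and one in an Actn4 intron (chr7:28917749-28918048). Capitals mark the E-boxes CAGATG and CAGCTG on either strand, the forms that proneural basic helix-loop-helix factors such as Neurog2 favour.
Itgav +37.1 kb: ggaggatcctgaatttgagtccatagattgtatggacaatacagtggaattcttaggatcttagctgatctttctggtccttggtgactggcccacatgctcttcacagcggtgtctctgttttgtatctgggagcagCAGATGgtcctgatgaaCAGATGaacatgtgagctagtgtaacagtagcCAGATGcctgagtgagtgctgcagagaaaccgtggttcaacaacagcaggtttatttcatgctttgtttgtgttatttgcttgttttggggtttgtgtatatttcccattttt
Itgb1 -90.7 kb: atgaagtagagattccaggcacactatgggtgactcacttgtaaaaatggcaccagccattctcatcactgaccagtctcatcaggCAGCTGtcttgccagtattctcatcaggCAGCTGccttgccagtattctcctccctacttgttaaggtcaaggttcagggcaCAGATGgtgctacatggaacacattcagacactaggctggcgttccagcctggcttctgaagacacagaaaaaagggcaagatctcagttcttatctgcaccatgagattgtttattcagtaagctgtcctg
Anxa2 +37.7 kb: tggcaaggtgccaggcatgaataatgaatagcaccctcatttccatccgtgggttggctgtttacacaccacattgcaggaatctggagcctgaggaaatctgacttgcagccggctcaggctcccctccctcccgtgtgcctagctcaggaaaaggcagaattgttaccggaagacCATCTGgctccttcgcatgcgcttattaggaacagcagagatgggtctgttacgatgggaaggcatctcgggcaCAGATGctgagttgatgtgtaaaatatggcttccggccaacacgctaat
Actn4 +1.3 kb: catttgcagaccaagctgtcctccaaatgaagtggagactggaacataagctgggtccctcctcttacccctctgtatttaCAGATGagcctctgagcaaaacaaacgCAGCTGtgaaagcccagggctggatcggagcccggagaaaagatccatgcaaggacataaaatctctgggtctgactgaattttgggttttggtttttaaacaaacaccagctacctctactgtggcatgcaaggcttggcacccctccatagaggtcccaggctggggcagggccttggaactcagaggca

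The first question was whether these genes lost accessibility with Neurog2 or Neurog2+Hmgb2. Called peaks were few, mostly distal and of both directions. In at least 1 of the 4 comparisons with Control, 8 were lower and 6 higher. Of these 14, 13 were distal, and 32 of the 43 members had none. Most calls among all peaks within 100 kb of a start were distal too. With Neurog2 in EGF+bFGF culture 316 distal and 49 promoter peaks of the series were lower, and 1100 and 107 higher. With Neurog2+Hmgb2 there, 335 and 69 were lower, and 1063 and 121 higher. With Neurog2 in EGF+bFGF culture, 3 member peaks were lower and 5 higher at an adjusted p under 0.05 (limma, Benjamini-Hochberg over all peaks), where 1.07% of all peaks were lower and 3.94% higher. With Neurog2+Hmgb2 in that culture, 6 were lower and 3 higher, against 1.07% lower and 3.97% higher of all peaks. The 6 were 2.53% of the 237 member peaks.

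In bFGF culture no member peak was lower with Neurog2 or with Neurog2+Hmgb2, and 1 peak, the same Itgav peak, was higher in each. The shares of all peaks were 0.353% lower and 0.898% higher with Neurog2, and 0.464% lower and 2.59% higher with Neurog2+Hmgb2. At an unadjusted p under 0.05, limma gave 10 member peaks lower and 18 higher with Neurog2 (4.22% and 7.59% of members), against 5.61% and 7.44% of the 37178 peaks within 100 kb of a start. With Neurog2+Hmgb2 it gave 18 lower and 15 higher (7.59% and 6.33%), against 5.27% and 7.47%. Over both classes together these shares of members lay near those of all peaks. By class they did not always. At promoters with Neurog2+Hmgb2, 10.3% of member peaks were lower at that p, against 3.81% of all, and 2.56% higher, against 3.18%. At distal peaks there, 6.29% of member peaks were lower, against 6.32%. With Neurog2, 3.85% of member promoters were lower, against 2.98%. Without bFGF Neurog2 replicate 2, the count at an adjusted p under 0.05 with Neurog2 was 0 in both directions.

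The differences were small. Among called member peaks they ran from 0.50 to 0.91 in size, and no member peak reached a difference of 1, the further limit for a less or more accessible site (LAS or MAS). Of all peaks, 0.863% were a MAS or LAS with Neurog2 in EGF+bFGF culture (0.736% with Neurog2+Hmgb2), and 0.16% with Neurog2 and 0.462% with Neurog2+Hmgb2 in bFGF culture.

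**Figure D1:**
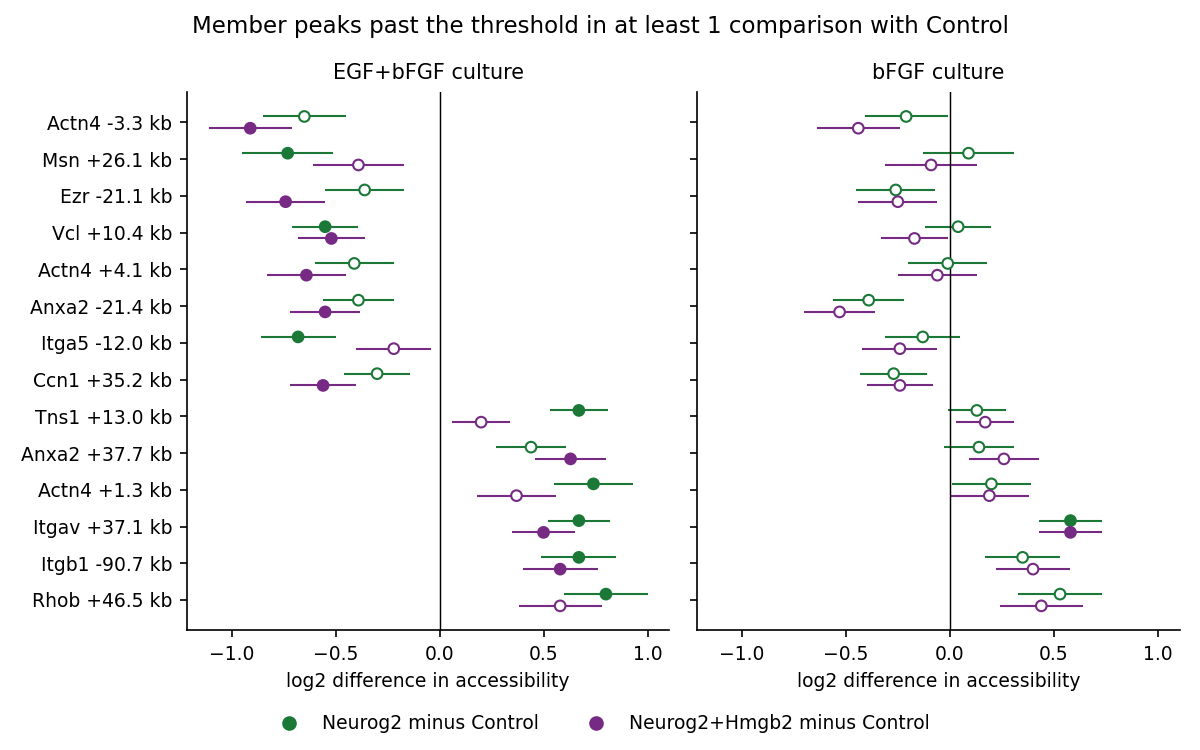
Log2 difference from Control (horizontal axis, bars are the SE) of the 14 member peaks past the threshold in at least 1 comparison, labelled by gene and by the distance of the peak centre from the nearest TSS in kb, in EGF+bFGF culture (left) and bFGF culture (right). Filled circles have an adjusted p under 0.05: 8 peaks were called lower and 6 higher, and in bFGF culture only the Itgav peak was called.

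Below the threshold, estimates in EGF+bFGF culture leaned to lower values. Over member promoters the median difference was -0.065 with Neurog2 and -0.09 with Neurog2+Hmgb2, where all promoter peaks had 0.02 and -0.029. Over member distal peaks it was -0.11 and -0.094, where all distal peaks had -0.052 and -0.011. An unadjusted p under 0.05 with a lower value was found in 15.1% of member distal peaks with Neurog2, against 9.96% of all distal peaks, and in 17.0% with Neurog2+Hmgb2, against 7.95%. With a higher value it was found in 6.92% and 8.18% of member distal peaks, against 11.1% and 11.8% of all. At promoters the lower shares were 11.5% with Neurog2, against 3.14% of all, and 6.41% with Neurog2+Hmgb2, against 3.86%. In bFGF culture the member medians were 0.017 (promoter) and 0.006 (distal) with Neurog2 and -0.052 and -0.054 with Neurog2+Hmgb2. All peaks of these classes had 0.031 and -0.009 with Neurog2, and -0.011 and -0.009 with Neurog2+Hmgb2. Member medians with Neurog2+Hmgb2 thus lay below those of all peaks in bFGF culture too. These shares and medians are a description, without a test.

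By library, the mean over member promoters minus that over all promoters was -0.119, -0.081 and -0.054 with Neurog2 and -0.109, -0.06 and -0.105 with Neurog2+Hmgb2 in EGF+bFGF culture, against -0.041, -0.024 and 0.042 in Control. Neither Neurog2 group overlapped Control there. In bFGF culture it was -0.064, -0.048 and -0.108 with Neurog2 and -0.072, -0.153 and -0.111 with Neurog2+Hmgb2, against -0.114, 0.04 and -0.104 in Control, so that both overlapped it. Over distal peaks in EGF+bFGF culture the same measure was -0.055, -0.052 and 0.025 with Neurog2 and -0.05, -0.066 and -0.101 with Neurog2+Hmgb2, against -0.005, 0.015 and 0.1 in Control, so that Neurog2 overlapped Control and Neurog2+Hmgb2 did not. Both groups overlapped Control in their distal means in bFGF culture (-0.032 to 0.078 with Neurog2 and -0.106 to -0.001 with Neurog2+Hmgb2, against -0.011 to 0.053 in Control). Over promoters, the Hmgb2 libraries stayed between -0.031 and -0.003 in EGF+bFGF culture and between -0.044 and -0.035 in bFGF culture.

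**Figure D2:**
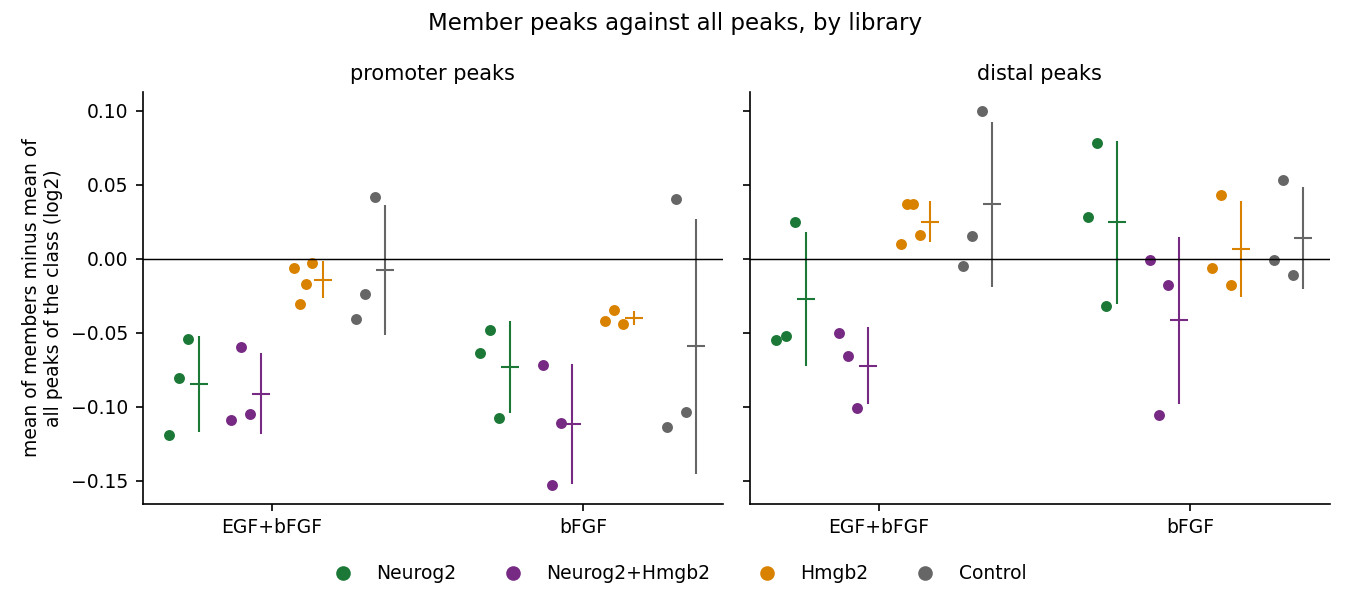
Mean rlog value of member peaks minus that of all peaks of the class (vertical axis, log2), for promoter (left) and distal (right) peaks, with 1 point per library and the group mean ± SD beside the points. In EGF+bFGF culture the promoter points of Neurog2 (-0.119 to -0.054) and Neurog2+Hmgb2 (-0.109 to -0.06) lie below those of Control (-0.041 to 0.042). Among distal points there, those of Neurog2 (-0.055 to 0.025) overlap Control (-0.005 to 0.1).

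Actins came first among the members by role. None of their 6 promoter and 9 distal peaks was called. The main promoter peak of Acta2, smooth muscle actin (chr19:34255149-34255898), had 5.42, 5.04 and 5.21 with Neurog2 and 4.72, 5.13 and 5.32 with Neurog2+Hmgb2, against 5.65, 5.63 and 5.31 in Control of EGF+bFGF culture. In bFGF culture it had 5.25, 5.32 and 5.09 with Neurog2 and 5.12, 4.81 and 4.81 with Neurog2+Hmgb2, against 5.10, 6.04 and 5.29 in Control. The Neurog2+Hmgb2 differences were -0.48 ± 0.19 (SE, adjusted p = 0.178) and -0.56 ± 0.19 (adjusted p = 0.118), and 1 Neurog2+Hmgb2 library in each culture (5.32 and 5.12) lay above the lowest Control library. Without bFGF Control replicate 2, which had 6.04, the second difference was -0.28, and without bFGF Control replicate 1 it was -0.75 and passed (adjusted p = 0.0485). With Hmgb2 alone the Acta2 promoter had 5.55 to 5.93 in EGF+bFGF culture and 5.27 to 5.58 in bFGF culture, which overlapped Control.

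A peak 10.2 kb upstream of Acta2 (chr19:34265529-34266129), chosen after its values were seen because it holds a CArG box, was lower as well in its estimates. It had 5.40, 5.22 and 5.35 with Neurog2 and 5.06, 5.30 and 5.28 with Neurog2+Hmgb2, against 6.18, 5.71 and 5.52 in Control of EGF+bFGF culture. In bFGF culture it had 5.51, 4.82 and 5.13 with Neurog2 and 5.04, 5.17 and 4.98 with Neurog2+Hmgb2, against 5.44, 5.85 and 5.40 in Control. The Neurog2+Hmgb2 libraries lay below Control in both cultures, yet their differences of -0.59 ± 0.18 (adjusted p = 0.0608) and -0.50 ± 0.18 (adjusted p = 0.167) did not pass, and the Neurog2 ones were -0.48 and -0.41. The promoter of Actb, the cytoplasmic beta actin, differed by between -0.10 and 0.03 in the 4 comparisons, with adjusted p of 0.836 or more. In EGF+bFGF culture Actb had 7.33, 7.19 and 7.45 with Neurog2 and 7.52, 7.13 and 7.18 with Neurog2+Hmgb2, against 7.09, 7.27 and 7.51 in Control. Its values in bFGF culture were 7.27, 7.10 and 7.16 with Neurog2 and 7.04, 7.20 and 7.37 with Neurog2+Hmgb2, against 7.28, 7.08 and 7.45 in Control, and groups overlapped in both. Hmgb2 libraries had 7.03 to 7.18 and 6.97 to 7.51 in the same cultures.

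Tropomyosins, calponins, transgelins and caldesmon, which line or stabilise actin filaments, and the myosin chains had no called peak among 16 promoter and 23 distal peaks. The promoter of Tagln (chr9:45935758-45936377), whose product transgelin binds actin in contractile cells, had 5.01, 4.98 and 5.27 with Neurog2 and 4.66, 5.16 and 4.81 with Neurog2+Hmgb2, against 5.62, 5.25 and 5.45 in Control of EGF+bFGF culture. The difference was -0.35 ± 0.20 with Neurog2 (adjusted p = 0.406) and -0.56 ± 0.20 with Neurog2+Hmgb2 (adjusted p = 0.122). All Neurog2+Hmgb2 libraries lay below Control here, and 1 Neurog2 library lay above its lowest. With only the libraries of that culture in the fit, the adjusted p with Neurog2+Hmgb2 was 0.0446. The Tagln values in bFGF culture were 5.05, 5.51 and 5.07 with Neurog2 and 5.40, 4.77 and 5.14 with Neurog2+Hmgb2, against 4.71, 5.47 and 5.24 in Control, all overlapping, and the differences were 0.07 and -0.03, both with an SE of 0.20. With Hmgb2 alone Tagln had 5.09 to 5.55 in EGF+bFGF culture and 5.04 to 5.70 in bFGF culture. Over the tropomyosins, calponins, transgelins and caldesmon, the median difference in EGF+bFGF culture was -0.21 with Neurog2 and -0.14 with Neurog2+Hmgb2 at the 14 promoter peaks, but 0.041 and 0.009 at the 13 distal peaks. In bFGF culture it was -0.025 and -0.053 at these promoters, and 0.073 and 0.048 at the distal peaks.

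Among crosslinkers and scaffolds, called peaks belonged to 1 gene, Actn4, which encodes alpha-actinin 4, a crosslinker of actin filaments. Its intronic peak 3.3 kb upstream of an internal start (chr7:28901260-28901722), the first sequence above, had 4.50, 4.57 and 4.83 with Neurog2 and 4.10, 4.72 and 4.32 with Neurog2+Hmgb2, against 5.37, 5.34 and 5.16 in Control of EGF+bFGF culture. Neither group overlapped Control. The difference with Neurog2+Hmgb2, -0.91 ± 0.20 (adjusted p = 0.00584), was the largest of any called member peak and held whichever of the 6 libraries was left out, with adjusted p of at most 0.0428. With Neurog2 it was -0.65 ± 0.20 (adjusted p = 0.0525). In bFGF culture the peak had 5.18, 4.53 and 4.89 with Neurog2 and 4.41, 4.92 and 4.57 with Neurog2+Hmgb2, against 4.86, 5.19 and 5.19 in Control, and neither difference passed. Hmgb2 libraries had 4.68 to 5.37 in EGF+bFGF culture and 4.71 to 5.14 in bFGF culture.

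A peak 1.3 kb downstream of another internal start of Actn4 (chr7:28917444-28918352), the only promoter peak called, went the other way. It had 6.14, 5.64 and 6.08 with Neurog2 and 5.34, 5.94 and 5.48 with Neurog2+Hmgb2, against 5.33, 5.27 and 5.04 in Control of EGF+bFGF culture. The Neurog2 difference was 0.74 ± 0.19 (adjusted p = 0.0199), with no overlap, and its adjusted p reached up to 0.143 and missed the threshold without Control replicate 3 or Neurog2 replicate 1 or 3. The Neurog2+Hmgb2 difference was 0.37 ± 0.19 (adjusted p = 0.349). Its Hmgb2 libraries had 4.88 to 5.74 in EGF+bFGF culture and 5.37 to 5.53 in bFGF culture. The bFGF values were 5.71, 5.27 and 5.62 with Neurog2 and 5.28, 5.57 and 5.72 with Neurog2+Hmgb2, against 5.36, 5.37 and 5.27 in Control, which overlapped.

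Actn4 thus held peaks of both directions within 1 gene. Its 8 peaks lay between 0 and 60.8 kb downstream of the upstream start, whose own promoter peak differed by 0.06 and -0.08 in EGF+bFGF culture. The third called peak, at 16.7 kb (4.1 kb from the nearest internal start, chr7:28945413-28945919), was chosen outside the limit of 2 peaks per gene, after its values were seen. It had 3.93, 4.14 and 4.02 with Neurog2 and 3.57, 3.80 and 4.03 with Neurog2+Hmgb2, against 4.42, 4.58 and 4.33 in Control, and the Neurog2+Hmgb2 difference of -0.64 ± 0.19 (adjusted p = 0.0451) was lost whichever of the 6 libraries was left out (adjusted p 0.0646 to 0.20). In bFGF culture this peak had 4.41, 3.94 and 3.93 with Neurog2 and 4.21, 3.89 and 4.05 with Neurog2+Hmgb2, against 4.00, 4.53 and 3.80 in Control, all overlapping. Its Hmgb2 libraries spanned 4.26 to 4.82 in EGF+bFGF culture and 4.21 to 4.55 in bFGF culture.

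**Figure D3:**
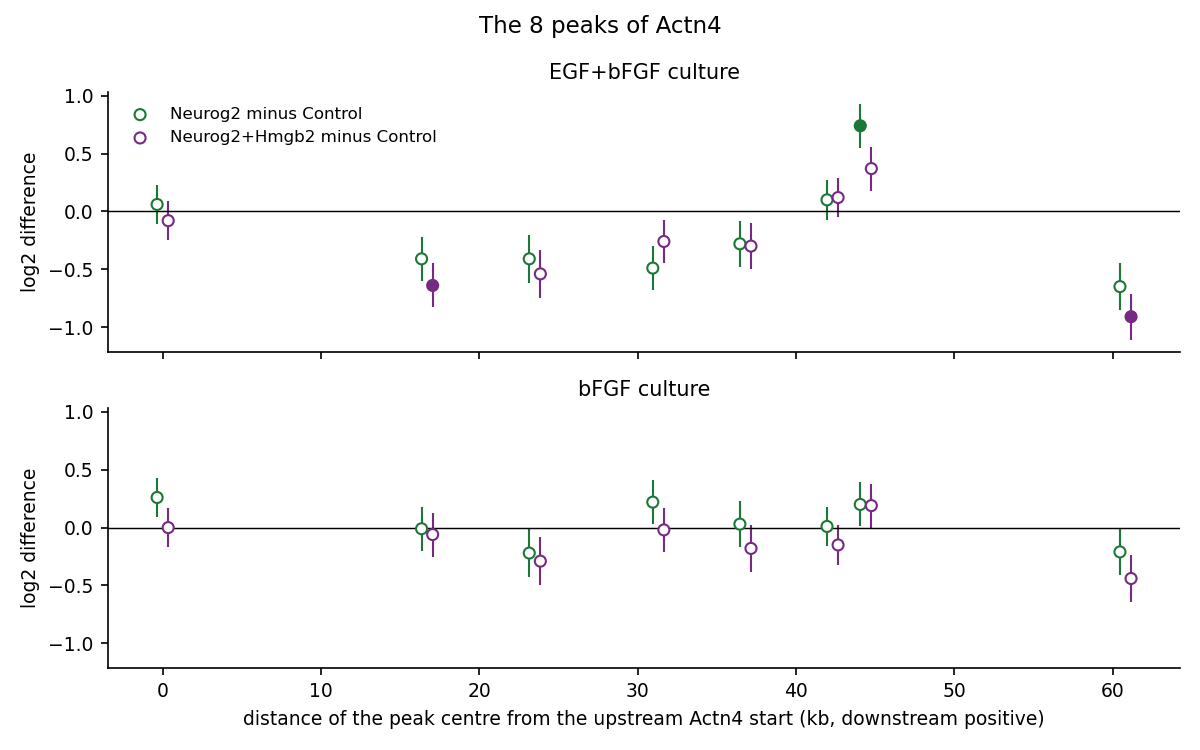
Log2 difference from Control (vertical axis, bars are the SE) of the 8 peaks of Actn4 by distance from its upstream start in kb, in EGF+bFGF culture (top) and bFGF culture (bottom). Filled circles have an adjusted p under 0.05: lower at 16.7 and 60.8 kb with Neurog2+Hmgb2, higher at 44.4 kb with Neurog2, while the peak at the start itself stayed within 0.08 of 0 in EGF+bFGF culture.

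Integrins and focal adhesion proteins held the most called peaks by count, all distal, among 49 peaks. With Neurog2 in EGF+bFGF culture 4.08% of these were lower and 6.12% higher, against 0.982% and 3.25% of all peaks within 100 kb of a start. With Neurog2+Hmgb2 there, the shares were 2.04% and 4.08%, against 1.09% and 3.18% of all. The 31 peaks of membrane linkers and Lmna had 3.23% lower and 0% higher with Neurog2, and 6.45% and 3.23% with Neurog2+Hmgb2. Itgav, the alpha V subunit of receptors for vitronectin and fibronectin, had the only member peak called in all 4 comparisons (chr2:83761565-83761842), inside an intron 37.1 kb from the start. It had 3.40, 3.60 and 3.39 with Neurog2 and 3.19, 3.27 and 3.41 with Neurog2+Hmgb2, against 2.79, 2.81 and 2.78 in Control of EGF+bFGF culture. In bFGF culture it had 3.07, 3.50 and 3.63 with Neurog2 and 3.56, 3.45 and 3.20 with Neurog2+Hmgb2, against 2.82, 2.78 and 2.87 in Control. Every Neurog2 and Neurog2+Hmgb2 library of both cultures thus lay above every Control library. The Hmgb2 libraries had 2.63 to 2.94, near Control.

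The Itgav differences in EGF+bFGF culture were 0.67 ± 0.15 with Neurog2 (adjusted p = 0.00611) and 0.50 ± 0.15 with Neurog2+Hmgb2 (adjusted p = 0.0455), and in bFGF culture 0.58 ± 0.15 with each (adjusted p = 0.0473 and 0.0252). The first held whichever library was left out, with adjusted p of at most 0.0453. The Neurog2+Hmgb2 call in EGF+bFGF culture was lost whichever of the 6 libraries was left out (adjusted p 0.0591 to 0.223) and with quantile normalization (0.0975). The Neurog2 call in bFGF culture was lost without any 1 of the 6 libraries except Neurog2 replicate 1 (adjusted p 0.0101 to 0.207) and had an adjusted p of 0.0618 in the fit with a replicate block. The Neurog2+Hmgb2 call in bFGF culture was lost without any except Neurog2+Hmgb2 replicate 3 (adjusted p 0.0293 to 0.115). With only the bFGF libraries in the fit both bFGF calls were lost (adjusted p = 0.196 with Neurog2 and 0.141 with Neurog2+Hmgb2).

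Itgb1 encodes the beta 1 subunit shared by many integrins. Its intergenic peak 90.7 kb upstream (chr8:128594741-128595088) had 4.55, 4.05 and 4.16 with Neurog2 and 4.10, 4.27 and 4.12 with Neurog2+Hmgb2, against 3.49, 3.67 and 3.58 in Control of EGF+bFGF culture. In bFGF culture it had 4.09, 4.20 and 3.89 with Neurog2 and 4.27, 4.05 and 4.00 with Neurog2+Hmgb2, against 3.75, 3.68 and 3.70 in Control, again without overlap. Only the EGF+bFGF differences passed, 0.67 ± 0.18 with Neurog2 (adjusted p = 0.0207) and 0.58 ± 0.18 with Neurog2+Hmgb2 (adjusted p = 0.0474). The first call was lost without Control replicate 1 or 3 or Neurog2 replicate 1 (adjusted p up to 0.198), and the second whichever library was left out (0.0792 to 0.173), with only that culture in the fit (0.0565) and with quantile normalization (0.0913). Hmgb2 libraries spanned 3.17 to 3.88 in EGF+bFGF culture and 3.57 to 4.01 in bFGF culture, overlapping Control in both. The Itgb1 promoter itself had 8.09, 8.38 and 8.03 with Neurog2 and 8.00, 7.80 and 7.68 with Neurog2+Hmgb2, against 8.08, 8.05 and 8.00 in Control of EGF+bFGF culture, and 7.98, 7.69 and 7.94 with Neurog2 and 7.73, 7.81 and 7.75 with Neurog2+Hmgb2, against 8.00, 7.61 and 7.85 in Control of bFGF culture. It differed by 0.12 and -0.22 in EGF+bFGF culture and by 0.05 and -0.05 in bFGF culture, with adjusted p of 0.548 or more. At this promoter the Hmgb2 libraries had 7.48 to 7.89 in EGF+bFGF culture, below Control, and 7.68 to 8.18 in bFGF culture.

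Tns1 encodes tensin 1, which links integrin tails to actin. Its intronic peak 13.0 kb from the start (chr1:74111050-74111902) had 5.92, 5.81 and 6.06 with Neurog2 and 5.35, 5.46 and 5.57 with Neurog2+Hmgb2, against 5.14, 5.14 and 5.51 in Control of EGF+bFGF culture. Neurog2 lay clear of Control (0.67 ± 0.14, adjusted p = 0.00413, at most 0.0326 with a library left out), while Neurog2+Hmgb2 overlapped it (0.20 ± 0.14, adjusted p = 0.582). The values in bFGF culture were 5.56, 5.31 and 5.39 with Neurog2 and 5.34, 5.47 and 5.58 with Neurog2+Hmgb2, against 5.27, 5.29 and 5.32 in Control. The Neurog2+Hmgb2 libraries all lay above Control there, yet the differences of 0.13 with Neurog2 and 0.17 with Neurog2+Hmgb2 did not pass. Hmgb2 libraries had 5.05 to 5.40 in EGF+bFGF culture and 5.04 to 5.19 in bFGF culture.

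Itga5, the alpha 5 subunit of the fibronectin receptor, had a peak 12 kb upstream (chr15:103378313-103379268) that was lower with Neurog2. It had 4.82, 5.20 and 4.95 with Neurog2 and 5.66, 5.50 and 5.20 with Neurog2+Hmgb2, against 5.52, 5.69 and 5.79 in Control of EGF+bFGF culture. The differences were -0.68 ± 0.18 with Neurog2 (adjusted p = 0.0188) and -0.22 ± 0.18 with Neurog2+Hmgb2 (adjusted p = 0.645), and only the Neurog2 libraries stood clear of Control. The call was lost without Control replicate 2 or 3 or Neurog2 replicate 1 or 3 (adjusted p up to 0.134). Values in bFGF culture were 5.40, 6.08 and 5.21 with Neurog2 and 5.62, 5.34 and 5.40 with Neurog2+Hmgb2, against 5.78, 5.69 and 5.62 in Control. The library at 6.08 is the one that lay away from its group. With Hmgb2 alone the peak had 5.60 to 5.98 in EGF+bFGF culture and 5.76 to 5.92 in bFGF culture.

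Vcl encodes vinculin, which couples talin to actin at adhesions. A narrow peak over a Vcl UTR, 10.4 kb from an internal start (chr14:21032306-21032543), had 3.20, 3.09 and 3.57 with Neurog2 and 3.29, 3.23 and 3.41 with Neurog2+Hmgb2, against 3.75, 3.88 and 3.87 in Control of EGF+bFGF culture. Both differences passed, at -0.55 ± 0.16 (adjusted p = 0.0375) and -0.52 ± 0.16 (adjusted p = 0.0481), without overlap. The Neurog2 call was lost without any 1 library except Neurog2 replicate 3 (adjusted p 0.0145 to 0.186) and with quantile normalization, and the Neurog2+Hmgb2 call without any of the 6 (0.0932 to 0.149). Its values in bFGF culture were 3.61, 3.86 and 3.46 with Neurog2 and 3.54, 3.41 and 3.36 with Neurog2+Hmgb2, against 3.83, 3.52 and 3.47 in Control, which overlapped. Its Hmgb2 libraries spanned 3.47 to 3.79 in EGF+bFGF culture and 3.50 to 3.68 in bFGF culture.

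**Figure D4:**
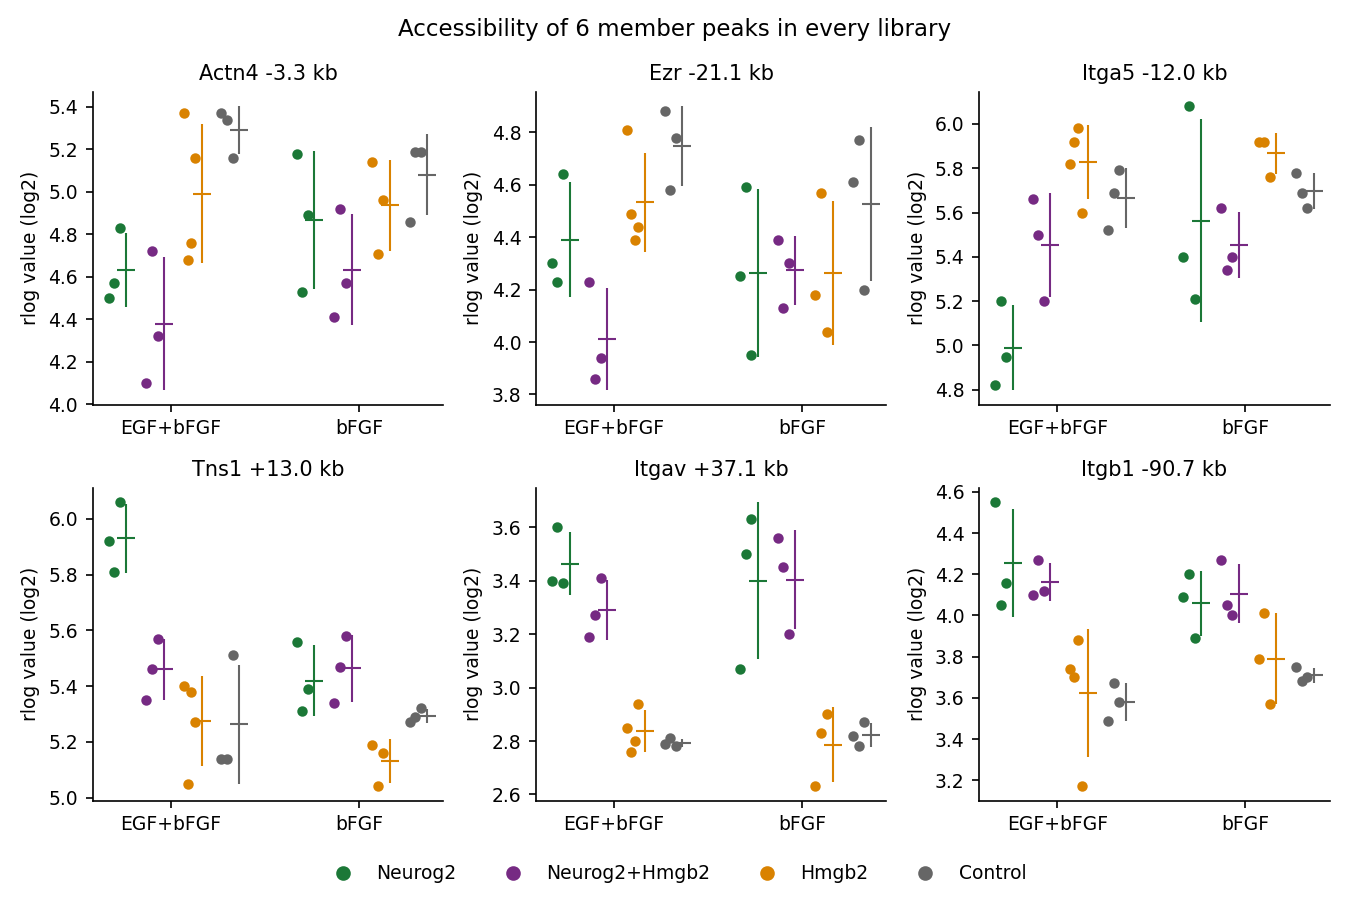
Rlog values (vertical axis, log2) of 6 member peaks in every library of both cultures, with the group mean ± SD beside the points. The Itgav and Itgb1 points of Neurog2 and Neurog2+Hmgb2 lie above those of Control in both cultures, the Actn4 points below them in EGF+bFGF culture (4.10 to 4.83 against 5.16 to 5.37).

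Membrane linkers came next. Ezr and Msn encode ezrin and moesin, which tie the plasma membrane to cortical actin, and Anxa2 encodes a calcium-dependent membrane-binding annexin. The Ezr peak 21.1 kb upstream (chr17:6803708-6804140) had 4.30, 4.23 and 4.64 with Neurog2 and 4.23, 3.86 and 3.94 with Neurog2+Hmgb2, against 4.88, 4.58 and 4.78 in Control of EGF+bFGF culture. Neurog2+Hmgb2 lay below Control (-0.74 ± 0.19, adjusted p = 0.0176), and Neurog2 overlapped it (-0.36 ± 0.19, adjusted p = 0.355). The Ezr call was lost without Control replicate 1 or 3 or Neurog2+Hmgb2 replicate 2 or 3 (adjusted p up to 0.0978). In bFGF culture the peak had 4.25, 4.59 and 3.95 with Neurog2 and 4.39, 4.13 and 4.30 with Neurog2+Hmgb2, against 4.61, 4.77 and 4.20 in Control, and groups overlapped. Hmgb2 libraries had 4.39 to 4.81 in EGF+bFGF culture and 4.04 to 4.57 in bFGF culture.

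The Msn peak (chrX:96121776-96122421), in an intron 26.1 kb from the start, had 4.41, 5.06 and 5.35 with Neurog2 and 5.26, 5.48 and 5.12 with Neurog2+Hmgb2, against 5.67, 5.69 and 5.67 in Control of EGF+bFGF culture. Its Neurog2 difference of -0.73 ± 0.22 (adjusted p = 0.0476) rested on unequal libraries: without Neurog2 replicate 1, which had 4.41, it was -0.47 (adjusted p = 0.407), and the call held only without Neurog2 replicate 3. It was also lost without a mean trend in the fit, with a filter on low values and with quantile normalization. The bFGF values, 5.82, 5.34 and 5.26 with Neurog2 and 5.68, 4.92 and 5.28 with Neurog2+Hmgb2, against 5.34, 5.57 and 5.25 in Control, overlapped, and Hmgb2 libraries had 5.44 to 5.87 in EGF+bFGF culture and 4.95 to 5.82 in bFGF culture.

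Anxa2 had called peaks of both directions. A peak 21.4 kb upstream, inside the neighbouring gene Ice2 (chr9:69431917-69432450), had 4.89, 4.92 and 5.18 with Neurog2 and 4.83, 4.88 and 4.77 with Neurog2+Hmgb2, against 5.34, 5.52 and 5.30 in Control of EGF+bFGF culture. Its bFGF values were 4.80, 5.22 and 4.76 with Neurog2 and 5.05, 4.76 and 4.55 with Neurog2+Hmgb2, against 5.13, 5.53 and 5.29 in Control. Both Neurog2 groups lay below Control in EGF+bFGF culture. With Neurog2+Hmgb2 the libraries lay below Control in both cultures, with differences of -0.55 ± 0.17 (adjusted p = 0.0455) in EGF+bFGF culture and -0.53 ± 0.17 (adjusted p = 0.0798) in bFGF culture. The first call was lost whichever library was left out (adjusted p 0.0785 to 0.182), with a filter on low values and with quantile normalization. With Hmgb2 alone this peak had 5.03 to 5.52 in EGF+bFGF culture and 4.97 to 5.30 in bFGF culture, overlapping Control.

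The other Anxa2 peak, 37.7 kb downstream of an internal start (chr9:69517619-69518047), had 4.48, 4.72 and 4.17 with Neurog2 and 4.77, 4.69 and 4.47 with Neurog2+Hmgb2, against 3.97, 3.83 and 4.25 in Control of EGF+bFGF culture. Only Neurog2+Hmgb2 was clear of Control, with a difference of 0.63 ± 0.17 (adjusted p = 0.0311). This call held only without Control replicate 3 (adjusted p 0.0303 to 0.156) and was lost with quantile normalization. In bFGF culture groups overlapped, with 4.64, 4.14 and 4.18 with Neurog2 and 4.31, 4.46 and 4.55 with Neurog2+Hmgb2, against 4.43, 4.01 and 4.09 in Control. Hmgb2 libraries had 3.96 to 4.21 in EGF+bFGF culture and 3.97 to 4.23 in bFGF culture.

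Rhob, a small GTPase found on endosomes, had an intergenic peak 46.5 kb downstream (chr12:8453324-8453699) that was higher with Neurog2. It had 5.15, 4.91 and 4.99 with Neurog2 and 4.58, 4.84 and 4.98 with Neurog2+Hmgb2, against 4.23, 4.02 and 4.40 in Control of EGF+bFGF culture. The bFGF libraries had 5.11, 4.14 and 4.60 with Neurog2 and 4.84, 4.32 and 4.41 with Neurog2+Hmgb2, against 4.13, 4.05 and 4.07 in Control. No library overlapped Control in either culture, but only the Neurog2 difference in EGF+bFGF culture passed, at 0.80 ± 0.20 (adjusted p = 0.0161), and it was lost without Control replicate 1 or 2 or Neurog2 replicate 1 (adjusted p up to 0.104). The Hmgb2 libraries of this Rhob peak had 3.88 to 4.49 in EGF+bFGF culture and 4.00 to 4.38 in bFGF culture. Rhoc had no called peak.

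The YAP-TEAD members had 1 called peak among 9 promoter and 20 distal peaks. Ccn1 encodes a secreted matrix protein and is a well known YAP target. Its intergenic peak 35.2 kb downstream (chr3:145614429-145615097) had 4.58, 4.63 and 4.65 with Neurog2 and 4.24, 4.44 and 4.40 with Neurog2+Hmgb2, against 4.73, 5.02 and 5.01 in Control of EGF+bFGF culture. Both groups lay below Control, and the Neurog2+Hmgb2 difference of -0.56 ± 0.16 passed (adjusted p = 0.0402). With 1 library left out it held only without Control replicate 1 (adjusted p up to 0.149), and it was lost with a filter on low values (0.0542). Values in bFGF culture were 4.63, 4.06 and 4.55 with Neurog2 and 4.38, 4.32 and 4.64 with Neurog2+Hmgb2, against 4.61, 4.82 and 4.62 in Control, with overlap. Hmgb2 libraries had 4.75 to 5.04 in EGF+bFGF culture and 4.46 to 4.93 in bFGF culture.

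The Ccn1 promoter (chr3:145648956-145651014) had 6.93, 6.62 and 7.04 with Neurog2 and 6.85, 6.54 and 6.87 with Neurog2+Hmgb2, against 7.11, 7.07 and 7.39 in Control of EGF+bFGF culture, again without overlap. Its differences of -0.32 ± 0.14 (adjusted p = 0.228) and -0.44 ± 0.14 (adjusted p = 0.0718) did not pass. In bFGF culture the Ccn1 promoter had 6.68, 6.59 and 6.87 with Neurog2 and 6.61, 6.80 and 6.80 with Neurog2+Hmgb2, against 6.78, 7.04 and 6.77 in Control, with overlap. The Hmgb2 libraries had 6.79 to 7.04 in EGF+bFGF culture, also below Control, and 6.86 to 7.16 in bFGF culture.

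The promoter of Yap1, the coactivator (chr9:8003306-8005204), had 7.23, 7.22 and 7.02 with Neurog2 and 7.19, 7.17 and 7.06 with Neurog2+Hmgb2, against 7.42, 7.23 and 6.99 in Control of EGF+bFGF culture. Its bFGF values were 6.94, 6.93 and 6.86 with Neurog2 and 6.63, 6.93 and 6.75 with Neurog2+Hmgb2, against 7.37, 7.06 and 6.82 in Control. The promoter of Tead1, its DNA-binding partner (chr7:112678502-112680172), had 6.72, 6.67 and 6.81 with Neurog2 and 6.76, 6.44 and 6.64 with Neurog2+Hmgb2, against 6.70, 6.50 and 7.32 in Control of EGF+bFGF culture, and 6.53, 6.55 and 6.49 with Neurog2 and 6.26, 6.77 and 6.65 with Neurog2+Hmgb2, against 6.41, 6.54 and 6.56 in Control of bFGF culture. All of these overlapped, and the differences of both genes lay between -0.32 and 0.06 in the 4 comparisons, with adjusted p of 0.332 or more. With Hmgb2 alone Yap1 had 6.89 to 7.28 and Tead1 5.84 to 6.78 in EGF+bFGF culture, and 6.78 to 7.17 and 6.33 to 6.81 in bFGF culture.

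Set per kb of peak width, the main promoters in Control of EGF+bFGF culture stood in the order Itgb1 (7.38), Actb (6.66), Yap1 (6.29), Ccn1 (6.15), Tagln (6.13), Tead1 (6.10) and Acta2 (5.95), as log2 levels. Tead1 had an SD of 0.43 over its 3 Control libraries and the others at most 0.22, so neighbours from Yap1 to Acta2 did not differ beyond their spread.

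Motifs were searched in the central 300 bp of each peak on both strands. The CArG box was found in 7 of 78 member promoter peaks (8.97%), against 0.928% of all promoter peaks, and in 8 of 159 member distal peaks (5.03%), against 1.75% of all distal peaks. In RefSeq promoter windows (GRCm38.p6), 5 of 46 windows of members held one (10.9%), those of Actg1, Cnn2, Lima1, Myl9 and Vcl, against 1.63% of windows of all genes. The 7 promoter peaks with a box lay at Tagln, which had 2 boxes (chr9:45936151-45936180 and chr9:45936028-45936057), at Vcl (chr14:20929161-20929190), Myl9, a myosin light chain (chr2:156775293-156775322), Actg1, gamma actin (chr11:120350126-120350155) and Ccn1 (chr3:145651884-145651913), and at 2 intronic peaks of Flna, filamin A (chrX:74248790-74248819 and chrX:74244799-74244828). The distal peaks with a box lay at Acta2, Myh9, Palld, Pdlim5, Tpm1 and Vcl. Shown on the strand of the gene, with the box in capitals and 10 bases on each side, are the boxes of the promoter peaks and, since its values are given above, that of the Acta2 peak 10.2 kb upstream (chr19:34265824-34265853).
Tagln, upstream box: agggtcctgcCCATAAAAGGtttttcccgg
Tagln, box at the start: gtgtctttccCCAAATATGGagcctgtgtg
Vcl: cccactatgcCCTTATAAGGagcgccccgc
Myl9: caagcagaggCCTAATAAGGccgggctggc
Actg1: gtcgaaatcgCCAAATATGGccgcgcgccg
Ccn1: actgctatacCCAAATATGGaaatattgtt
Flna, first box: agaatctactCCAAATAAGGgaaaatatga
Flna, second box: cagagctttgCCATATAAGGcaaaaaaatg
Acta2 upstream peak: agctgccttcCCTTATAAGGttaaggttct

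None of the 14 called peaks held a CArG box. Of the 7 member promoter peaks with one, 6 had a lower estimate with Neurog2+Hmgb2 than Control in EGF+bFGF culture (median -0.268), against 50 of the 71 without one (median -0.081), and 5 of 7 in bFGF culture (median -0.034), where the 71 had -0.053. With Neurog2 alone the medians with and without a box were -0.067 and -0.062 in EGF+bFGF culture, and 0.108 and 0.015 in bFGF culture. The Actg1 peak with the box, 1.6 kb upstream, differed by -0.34 with Neurog2 and -0.43 with Neurog2+Hmgb2 in EGF+bFGF culture, while in bFGF culture it differed by -0.03 with Neurog2+Hmgb2, with adjusted p of 0.166 or more. The Vcl promoter differed by -0.03 and -0.32 in EGF+bFGF culture, and the pair of Flna peaks by -0.06 and 0.18 with Neurog2 and by -0.06 and 0.11 with Neurog2+Hmgb2.

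The TEAD motif GGAATG stood in 16 member promoter peaks (20.5%, against 12% of all) and in 41 member distal peaks (25.8%, against 24.5% of all). Distal member peaks with it had a median difference of -0.178 in EGF+bFGF culture with Neurog2 and -0.255 with Neurog2+Hmgb2, and those without it -0.06 and -0.078. With and without it in bFGF culture, the medians were 0.006 and 0.004 with Neurog2, without such a gap, and -0.091 and -0.028 with Neurog2+Hmgb2. For all distal peaks the medians in EGF+bFGF culture were -0.088 and -0.054 with the motif, and -0.04 and 0.003 without. The AP-1 motif TGANTCA stood in 16 member promoter peaks (20.5%, against 8.61%) and in 60 distal ones (37.7%, against 34.3%). Gaps in EGF+bFGF culture were not limited to the TEAD motif. Member promoter peaks with and without AP-1 had medians of -0.216 and -0.045 with Neurog2, and distal ones -0.111 and -0.108. All promoter peaks had -0.095 and 0.028, and all distal peaks -0.12 and -0.012. Distal member peaks with and without CAGATG had 0.006 and -0.148 with Neurog2, and 0.066 and -0.141 with Neurog2+Hmgb2. All distal peaks had a like gap for CAGATG, at 0.059 and -0.093 with Neurog2, and 0.113 and -0.055 with Neurog2+Hmgb2.

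E-boxes fell unevenly over the called peaks. The 6 higher peaks each held CAGATG or CAGCTG: 4 held CAGATG and 4 CAGCTG, with 3 copies of CAGATG in the Itgav peak. Of the 8 lower peaks none held either, and 2 held the TEAD motif. Among all member distal peaks 25.2% held CAGATG and 24.5% CAGCTG, against 31.8% and 27.6% of all distal peaks. The called peaks are few and were chosen by their values, so these counts are a description.

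**Figure D5:**
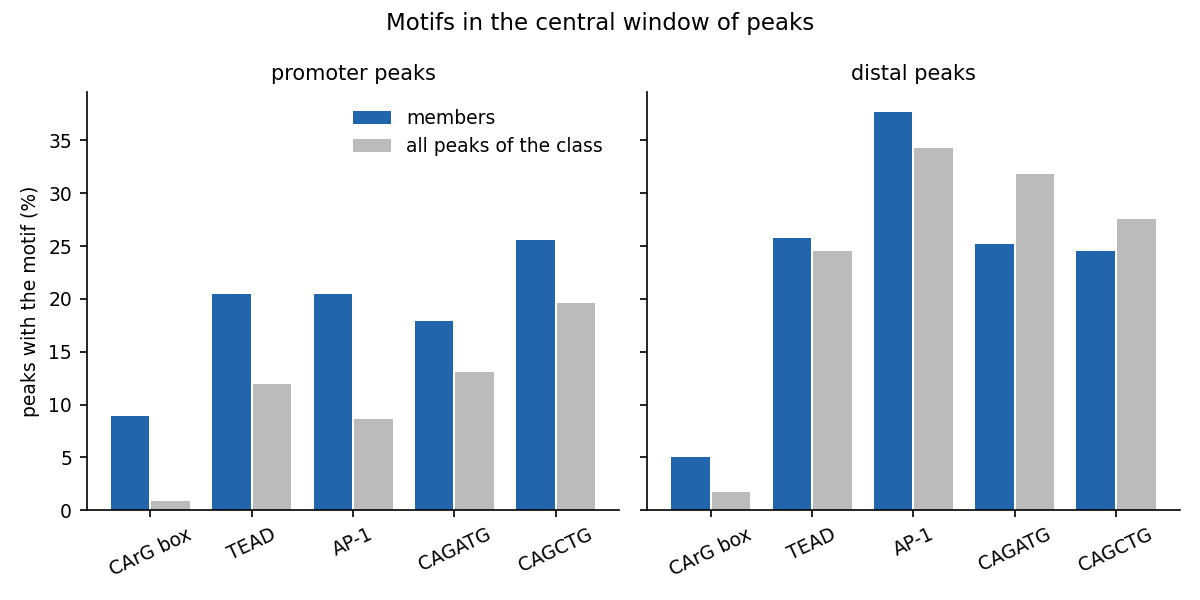
Share of peaks whose central 300 bp hold each motif (vertical axis, percent), for member peaks (blue) and all peaks of the class (grey), at promoters (left) and distal peaks (right). The CArG box was in 8.97% of member promoters against 0.928% of all, and in 5.03% of member distal peaks against 1.75% of all.

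The cultures share no library, so the peaks called in EGF+bFGF culture could be read again in bFGF culture. Of the 6 lower and 3 higher with Neurog2+Hmgb2, all 9 had the same sign in bFGF culture, and of all peaks called in that comparison 95.3% of lower and 98.6% of higher ones did. Of those called with Neurog2, all 5 higher peaks kept their sign and 1 of 3 lower ones did (the Itga5 peak), where all called peaks gave 94.3% and 81.4%. Estimates of these peaks, which had been picked by their EGF+bFGF calls, were nearer 0 in bFGF culture except that of Itgav with Neurog2+Hmgb2. No member peak passed the test of the difference between cultures, for Neurog2 or for Neurog2+Hmgb2. In these interaction tests 0% of all peaks were called, and 10 and 7 member peaks had an unadjusted p under 0.05 (limma), 4.22% and 2.95% of members against 6.0% and 3.07% of the 37178 peaks within 100 kb of a start. Over member promoters the median of the bFGF effect minus the EGF+bFGF effect was 0.11 for Neurog2 and 0.073 for Neurog2+Hmgb2.

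No member peak was called between Neurog2+Hmgb2 and Neurog2. In this comparison 0.0153% of all peaks were called in EGF+bFGF culture and 0% in bFGF culture, and limma gave 11 member peaks (4.64%) at an unadjusted p under 0.05 in each, against 4.68% of the 37178 peaks in EGF+bFGF culture and 7.1% in bFGF culture. The median difference over member promoters was -0.049 in EGF+bFGF culture and -0.077 in bFGF culture. Hmgb2 alone against Control called none either, with 0.00219% of all peaks called in each culture, and gave 15 member peaks (6.33%, against 9.01%) in EGF+bFGF culture and 6 (2.53%, against 4.01%) in bFGF culture at an unadjusted p under 0.05. Its median difference over member promoters was -0.093 in EGF+bFGF culture, where all promoter peaks had -0.088. Between bFGF Control and EGF+bFGF Control no member peak and 0% of all peaks were called, with 17 member peaks (7.17%, against 7.27%) at an unadjusted p under 0.05, and the member promoter median was -0.087, against -0.015 for all promoters. The 9 promoter peaks of YAP-TEAD members were 5 of Ccn1, 2 of Tead1 and 1 each of Yap1 and Wwtr1, so several shared a gene. In bFGF Control 2 of them had an unadjusted p under 0.05 (limma). All 9 had a lower estimate there (median -0.23), where 53.3% of all promoter peaks did. Of the 20 distal peaks of these members 11 did (median -0.012), and the 28 promoter peaks of the other Hippo and YAP-TEAD genes described next had a median of -0.058.

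Beyond the members, 73 further genes of the same pathways (Hippo and YAP-TEAD, SRF and its coactivators, adhesion and actin regulators) had 107 promoter and 207 distal peaks, at 72 of the genes. With Neurog2 in EGF+bFGF culture 1 promoter and 8 distal peaks were lower, and 2 and 6 higher. These were 2.87% lower and 2.55% higher of the 314 peaks, against 0.982% and 3.25% of the 37178 peaks within 100 kb of a start. With Neurog2+Hmgb2 there, 3 and 9 were lower, and 1 and 3 higher (3.82% and 1.27%, against 1.09% and 3.18%). In bFGF culture the counts were 1 lower and 1 higher with Neurog2 (0.318% each, against 0.277% and 0.745%). With Neurog2+Hmgb2 in bFGF culture they were 3 lower and 4 higher (0.955% and 1.27%, against 0.452% and 2.0%). These shares are a description, without a test. The genes named next were chosen after their values were seen.

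Wwc1, the Hippo regulator KIBRA, had a peak 31.8 kb from its start (chr11:35948559-35948958) that was lower with Neurog2+Hmgb2 in both cultures, with differences of -1.10 ± 0.22 (adjusted p = 0.00287) in EGF+bFGF culture and -0.82 ± 0.22 (adjusted p = 0.0347) in bFGF culture. Lats2, a kinase that phosphorylates YAP, had a promoter peak 2.4 kb upstream that was lower with Neurog2 (-0.75 ± 0.18, adjusted p = 0.0126) and with Neurog2+Hmgb2 (-0.76 ± 0.18, adjusted p = 0.0113) in EGF+bFGF culture, and a peak 16.9 kb upstream that was higher with Neurog2 (0.88 ± 0.23, adjusted p = 0.0208). A peak 6.9 kb upstream of Tead4, another TEAD factor, was lower with Neurog2 in EGF+bFGF culture (-0.67 ± 0.17, adjusted p = 0.0193) and with Neurog2+Hmgb2 in bFGF culture (-0.70 ± 0.17, adjusted p = 0.0193).

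Gains stood beside these losses. Itgb8, which encodes an integrin subunit that pairs with alpha V, had the largest difference of the called peaks of these 73 genes, 31.8 kb from its start (chr12:119206754-119207193), at 1.24 ± 0.19 with Neurog2 (adjusted p = 0.000169) and 1.14 ± 0.19 with Neurog2+Hmgb2 (adjusted p = 0.000398) in EGF+bFGF culture. Bcar1, the adaptor p130Cas, had a peak 4.5 kb upstream (chr8:111736399-111736784) that was higher in all 4 comparisons, in EGF+bFGF culture by 0.76 with Neurog2 and 0.79 with Neurog2+Hmgb2, and in bFGF culture by 0.67 and 0.96, each with an SE of 0.16 and an adjusted p of at most 0.0358.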

How the data were processed

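The deposited table holds log2 values that the authors made from reads per peak with the rlog function of DESeq2 (1.36.0 per the labels). Before that, per the labels and the methods, reads had been trimmed with cutadapt, aligned to mm10 with Bowtie2 and turned into peaks per sample with Genrich in ATAC mode, without mitochondrial reads and PCR duplicates, and the peaks merged. The rlog step shrinks differences at weak peaks, and since the values are not counts, the depth is unknown and no counting interval was computed.

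Peak starts, which count from 0 in the file, are printed from 1. Distances run from the peak to the nearest protein-coding transcript start of GENCODE vM21 (GRCm38, the assembly of mm10), and printed distances are those of the peak centre. All 45672 peaks were fitted with limma 3.58.1 (R 4.3.3) as 8 group means over 25 libraries, with 17 residual degrees of freedom, eBayes moderation along the mean level, and Benjamini-Hochberg adjustment over all peaks. The fit was tested on simulated data. Values in every library are given for member peaks called in a comparison of Neurog2 or Neurog2+Hmgb2 with Control (at most 25, and 2 per gene), and for the main promoters of Tagln, Acta2, Ccn1, Yap1, Tead1, Itgb1 and Actb (Hmgb2 as ranges). No member peak was called in another comparison. Members and lists were chosen with earlier results of these data known.

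Replicate numbers recur across groups. Deviations of same-numbered libraries correlated positively in every pair for Neurog2 and Control of bFGF culture (0.218, 0.301 and 0.234). The same held for Hmgb2 and Control of bFGF culture (0.0831, 0.397 and 0.337). It also held for Neurog2+Hmgb2 and Control of EGF+bFGF culture, with some values near 0 (0.000135, 0.248 and 0.0353). Results with the number as a block are given above or in the closing section. Alternatives left out each library, added the replicate block, fitted 1 culture only, dropped the mean trend, filtered low values, applied quantile normalization, measured distance from the peak centre, or set promoters at 1 kb.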

Additional observations from a re-analysis of the deposited data

How the results depend on the processing

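Counts of called member peaks moved with the fit. Leaving out 1 library at a time gave 0 to 4 lower and 2 to 5 higher peaks with Neurog2 in EGF+bFGF culture, and 1 to 3 lower and 0 to 1 higher with Neurog2+Hmgb2. In bFGF culture the ranges were 0 to 2 higher with Neurog2, and 0 to 1 lower and 0 to 1 higher with Neurog2+Hmgb2. Such fits have fewer libraries. With only the culture compared in the fit, the lower counts in EGF+bFGF culture were 6 with Neurog2 and 11 with Neurog2+Hmgb2, and the higher counts in bFGF culture 0 and 0. With a filter on low values they were in EGF+bFGF culture 1 lower and 2 higher with Neurog2 and 1 lower and 0 higher with Neurog2+Hmgb2, and 0 higher in both comparisons of bFGF culture, with fewer peaks tested. Quantile normalization gave in EGF+bFGF culture 1 lower peak with Neurog2 and 0 higher with Neurog2+Hmgb2; the cause was not tested. The replicate block gave 0 higher peaks with Neurog2 and 1 lower with Neurog2+Hmgb2 in bFGF culture, and in EGF+bFGF culture 4 lower and 6 higher with Neurog2 and 6 lower and 2 higher with Neurog2+Hmgb2, and left EGF+bFGF Hmgb2 replicate 4 without a partner. With that block the adjusted p of Neurog2+Hmgb2 in EGF+bFGF culture was 0.0522 at the Ccn1 peak 35.2 kb downstream and 0.0628 at the Itgav peak. The median difference of member promoters with Neurog2+Hmgb2 in bFGF culture was -0.081 to -0.036 with a library left out. That of member distal peaks there ran from -0.098 to 0.009, and those of Neurog2 in bFGF culture crossed 0 as well. No direction of a called peak was turned by any of these fits. The promoter of Acta2 passed the test with Neurog2+Hmgb2 in bFGF culture only without Control replicate 1 (-0.75, adjusted p = 0.0485). Comparisons with no called member peak (Hmgb2 against Control, Neurog2+Hmgb2 against Neurog2, Control between cultures, and the interactions) gave 0 with every library left out and with the replicate block. The share of all peaks called between the Controls did depend on the fit. With only the Control libraries fitted, 37 of all 45672 peaks were higher and 123 lower in bFGF Control than in EGF+bFGF Control.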
